A study of Mus musculus with 4 samples.

Results

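Interleukins and their receptors outside the IL-1 family were taken from gene count tables of 4 RNA-seq libraries, all labelled as ductal cells of mouse pancreas. Members were the gene models whose symbol begins with Il and a number, without the IL-1, IL-18, IL-33 and IL-36 genes and their receptors. The rule gave 62 of 52535 gene models, namely 29 ligands, 32 receptor chains and the enzyme gene Il4i1.

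The 2 libraries labelled Lats1/2 KO (KO 1 and KO 2) came from C57BL/6 mice carrying floxed alleles of both Lats1 and Lats2 together with Sox9-CreER. The 2 WT libraries (WT 1 and WT 2) came from C57BL/6 mice whose genotype is given as wild type. LATS1 and LATS2 are Hippo kinases that hold YAP and TAZ in check, and CreER recombines floxed alleles in Sox9-expressing cells after tamoxifen. No source used here gives age, sex, time after recombination, the way duct cells were isolated or whether WT mice received tamoxifen. It is also not stated whether the libraries of a group are from separate animals. P-values therefore cover only the variation among these samples, which may be technical.

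Interleukins are secreted proteins by which immune, stromal and epithelial cells signal to each other. Most members bind paired receptor chains that activate JAK kinases and STAT transcription factors. Families share a chain: the common gamma chain for IL-2, IL-4, IL-7, IL-9, IL-15 and IL-21, gp130 for IL-6 and IL-11, and IL-12RB1 for IL-12 and IL-23. IL-17 receptors signal instead through adaptor proteins to NF-kB and to mRNA-stabilising factors. In the pancreas, IL-6 family and IL-17 signals are known from pancreatitis and early neoplasia.

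Libraries held 3566387 to 5925601 counts. Neither targeted gene was lower: Lats1 was at 69.6 and 78.7 CPM (depth-normalised counts, with library sizes scaled by the trimmed mean of M values, TMM) in KO 1 and KO 2, against 50.5 and 65.3 CPM in WT 1 and WT 2, and Lats2 at 162 and 121 CPM in the KO-labelled libraries, against 114 and 102 CPM in WT (edgeR adjusted p = 0.171 for Lats1 and 0.127 for Lats2). Counts over whole gene models can include transcripts of recombined alleles, so they do not check the deletion, and groups are named by their labels. Of 14 duct markers 9 rose and 1 fell, with summed levels of 15210 and 15400 CPM in KO 1 and KO 2, against 2179 and 2674 CPM in WT 1 and WT 2. The libraries also held RNA of other cells. The acinar list summed to 146 and 3522 CPM in the KO-labelled libraries, against 45700 and 81690 CPM in WT, and only 2 of its 9 tested genes passed, both lower, with KO 1 and KO 2 far apart. All 16 tested T and NK cell markers fell, with sums of 74.6 and 37.7 CPM, against 1742 and 1842 CPM in WT (18 genes, of which Ncr1 was at 0 in the KO-labelled libraries). All 14 B and plasma cell markers fell, with sums of 317 and 143 CPM, against 3124 and 3428 CPM in WT. Of 16 macrophage and monocyte markers 15 rose and Ly6c2 fell, with sums of 7294 and 5133 CPM, against 736 and 721 CPM in WT. Of 12 fibroblast and stellate cell markers 9 rose and 2 fell, with sums of 15410 and 9982 CPM, against 3591 and 3122 CPM in WT. Of 10 dendritic cell markers 1 rose and 8 fell, with sums of 168 and 129 CPM, against 354 and 465 CPM in WT. Of 8 endothelial markers 0 rose and 6 fell, of 10 neutrophil markers 6 were tested, 2 rose and 2 fell, and of 12 mast cell, basophil and eosinophil markers 2 were tested and 0 passed. In these bulk samples, fewer cells of a type and less RNA per cell cannot be told apart.

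**Figure D1:**
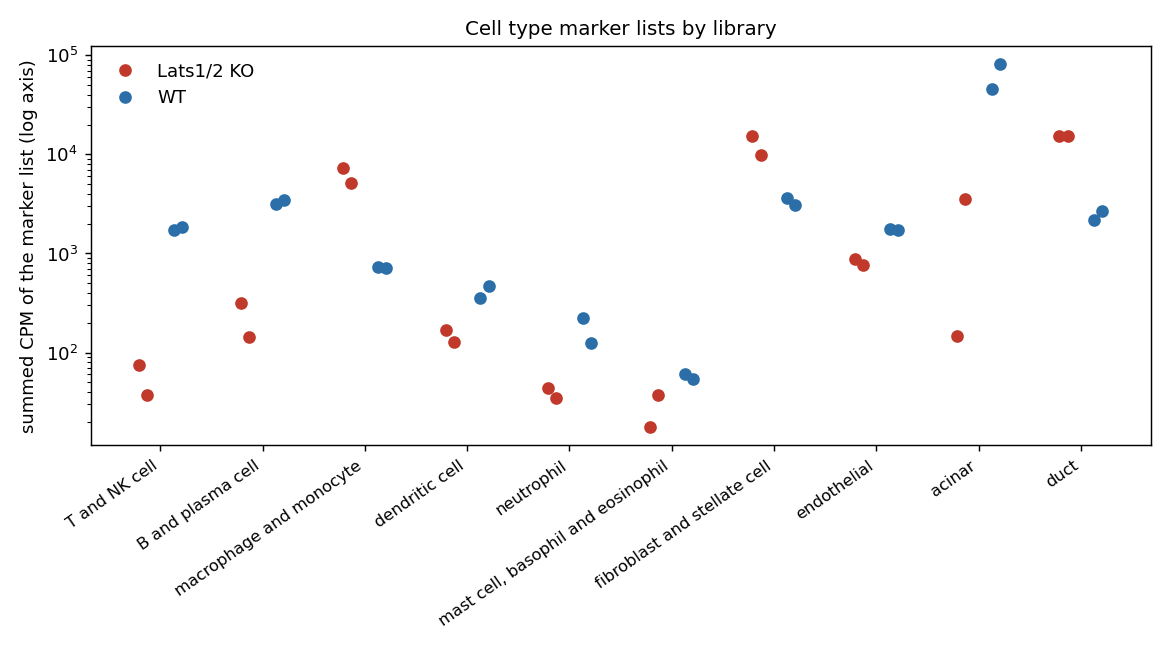
Summed TMM-scaled CPM of 10 cell type marker lists on a log axis, with 1 point per library. T and NK cell, B and plasma cell, dendritic cell, endothelial and acinar sums were lower in both KO-labelled libraries than in both WT libraries, and macrophage, fibroblast and duct sums were higher. Neutrophil sums (43.6 and 34.9 CPM, against 224 and 125 CPM in WT) were also lower, with Ltf most of the WT sum. So were mast cell, basophil and eosinophil sums (17.6 and 37.2 CPM, against 61.2 and 54.3 CPM in WT), with Kit most of the WT sum.

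Il2ra, Il2rb, Il2rg, Il7r, Il21r and Il27ra were among 13 receptor chains that were lower in the KO-labelled libraries, while the receptor chains Il4ra, Il13ra1, Il10rb and Il17rd and the ligands Il10, Il11, Il23a and Il34 were higher. Of the 62 members, 35 passed the filter on low counts and were tested, 24 changed at an edgeR adjusted p under 0.05, and 11 did not pass. Those 24 are 68.6% of the tested members, against 42.2% of all 13990 genes tested. The 8 members that rose are 22.9% of those tested, close to the 22.0% of all genes that rose, whereas the 16 that fell are 45.7%, against 20.2% of all genes. A member that is low in both groups could not pass the filter, so these shares describe the tested members and not the 62. Other members passed the filter only through the group where they are high. Examples are Il11, at 0.546 and 0 CPM in WT, and Il9r, at 0.200 and 0.322 CPM in the KO-labelled libraries. Such members are tested mostly when they differ, so the shares do not test whether members change more often than other genes. The median log2 difference was -0.57 over tested members and -0.01 over all tested genes. With upper quartile scaling, which shifted the median of all genes to -0.20, 39.4% of changed genes were higher, against 52.1% with TMM. All p-values below are Benjamini-Hochberg values over all 13990 genes from edgeR's quasi-likelihood test, and errors of log2 differences are standard errors (SE) of that fit.

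Of the 29 ligands, 10 were tested, 4 rose and 3 fell, with a median log2 difference of 0.93. Of the 32 receptor chains, 25 were tested, 4 rose and 13 fell, with a median of -1.11. Summed over all members, receptor chains reached 1082 and 987 CPM in KO 1 and KO 2, against 1479 and 1436 CPM in WT 1 and WT 2. Ligands summed to 139 and 192 CPM in the KO-labelled libraries, against 98.4 and 114 CPM in WT. The higher ligand sum rests on Il6, which did not pass the threshold: without Il6 the sum was 51.4 and 53.1 CPM in KO 1 and KO 2, against 85.8 and 78.7 CPM in WT 1 and WT 2.

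**Figure D2:**
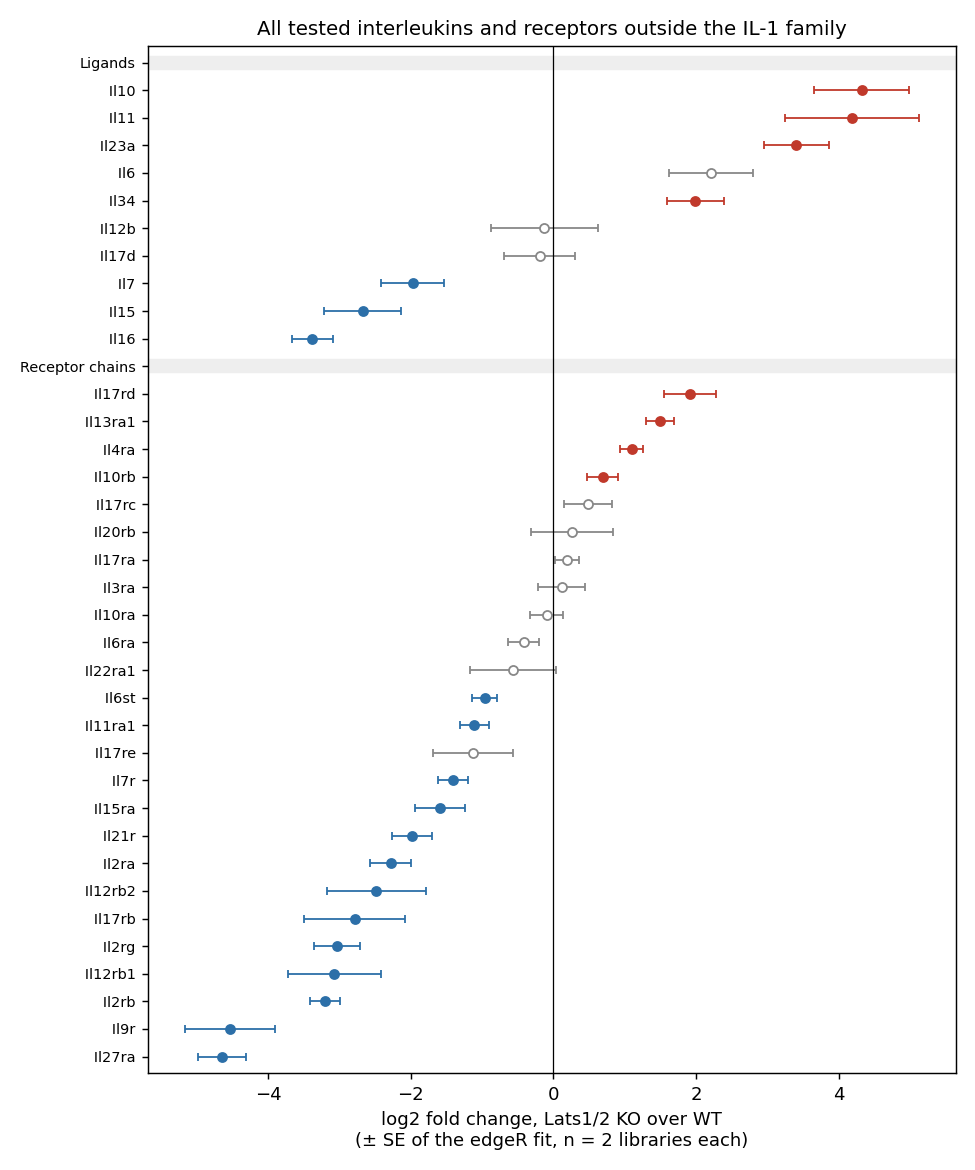
Log2 fold change of KO-labelled over WT libraries (n = 2 each) for the 35 tested members, with the SE of the edgeR fit as bars. Filled points passed an adjusted p of 0.05, red for higher and blue for lower; Il10 at 4.32 and Il27ra at -4.65 lie at the ends.

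Of the tested ligands, Il6 and Il11 signal through gp130. Il11 (chromosome 7, 4772373 to 4782857), a stromal and epithelial cytokine that acts through IL-11RA and gp130, had 16 and 41 counts in KO 1 and KO 2, against 2 and 0 counts in WT 1 and WT 2. That is 3.20 and 6.60 CPM in the KO-labelled libraries, against 0.546 and 0 CPM in WT, and the groups do not overlap. The pooled ratio of KO-labelled over WT counts was 20.7 (95% exact interval 5.47 to 175, counting error only), and the log2 difference was 4.18 ± 0.94 SE (edgeR adjusted p = 0.00774). Il11 did not pass without KO 2 (3.56, edgeR adjusted p = 0.115), and its log2 difference was 7.71 without WT 1 and 3.13 without WT 2.

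Il6 (chromosome 5, 30013114 to 30019981), the pro-inflammatory founder of this family, was at 87.0 and 138 CPM in KO 1 and KO 2, against 12.6 and 35.5 CPM in WT 1 and WT 2. Every KO-labelled value was above every WT value, but the libraries within each group differed widely. The means were 113 ± 36.3 CPM in the KO-labelled libraries and 24.0 ± 16.2 CPM in WT (SD, n = 2 each). The log2 difference of 2.21 ± 0.59 SE narrowly missed the threshold (edgeR adjusted p = 0.0513). It passed with DESeq2-type size factors (edgeR adjusted p = 0.0495), with no filter (edgeR adjusted p = 0.000629) and with DESeq2 (adjusted p = 0.0114). It did not pass with upper quartile scaling (edgeR adjusted p = 0.0614). With the replicate block it also passed (edgeR adjusted p = 2.4e-14). Whether same-numbered libraries form pairs is not stated in the titles, so no weight is put on that value. Leaving out 1 library removes the spread within its group. The log2 difference was then 2.52 without KO 1, 1.88 without KO 2, 1.68 without WT 1 and 3.17 without WT 2. Il6 did not pass without KO 1 or without KO 2. Per kilobase of exon, Il6 was the most abundant ligand in both groups, at 46.4 CPM per kb in the KO-labelled libraries and 9.90 CPM per kb in WT. Il27, which pairs with EBI3, had 1 and 2 counts in KO 1 and KO 2, against 1 and 3 counts in WT.

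The promoters of Il11, Il6 and Il16 are shown because the series concerns YAP and AP-1, and because each holds the AP-1 letters TGANTCA, in capitals, in a ligand that rose, in the most abundant ligand, and in a ligand that fell. Each runs 5′ to 3′ from 250 bases before to 50 bases after a RefSeq start site (GRCm38.p6). These are chr7:4778092-4778391 on the minus strand for 1 of 2 Il11 start sites, chr5:30012864-30013163 on the plus strand for Il6, and chr7:83735490-83735789 on the minus strand for 1 of 3 Il16 start sites.
Il11: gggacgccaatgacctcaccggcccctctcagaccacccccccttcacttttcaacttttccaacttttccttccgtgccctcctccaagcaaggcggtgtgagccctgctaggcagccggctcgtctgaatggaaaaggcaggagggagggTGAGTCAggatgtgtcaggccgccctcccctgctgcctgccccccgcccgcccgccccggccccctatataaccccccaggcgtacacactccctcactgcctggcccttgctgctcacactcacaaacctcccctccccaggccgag
Il6: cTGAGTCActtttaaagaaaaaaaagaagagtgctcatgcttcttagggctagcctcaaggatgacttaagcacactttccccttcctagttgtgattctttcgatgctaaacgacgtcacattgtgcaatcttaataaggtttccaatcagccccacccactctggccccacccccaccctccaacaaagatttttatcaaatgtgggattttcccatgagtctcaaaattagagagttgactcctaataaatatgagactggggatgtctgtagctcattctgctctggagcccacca
Il16: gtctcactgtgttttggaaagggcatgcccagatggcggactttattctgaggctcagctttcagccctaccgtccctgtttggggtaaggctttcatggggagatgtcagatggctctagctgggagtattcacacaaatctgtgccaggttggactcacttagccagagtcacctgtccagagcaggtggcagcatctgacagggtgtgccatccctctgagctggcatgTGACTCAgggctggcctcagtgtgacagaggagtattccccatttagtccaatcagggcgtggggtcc
The other Il11 promoter and the other Il16 promoters hold no match. The match begins 98 bases before the start site in Il11, 249 bases before it in Il6 and 18 bases before it in Il16. TGANTCA, in which N is any base, reads the same on both strands as a pattern. It reads TGAGTCA or TGACTCA in the 3 promoters printed, but TGAATCA in those of Il17a and Il22ra1. It was found in 11 of 53 RefSeq promoters of 46 members (20.8%), and in 7.81% of 32851 mouse promoters of the same length. GGAATG, the core of the TEAD motif, was in 13.2% of the members' promoters and 14.7% of all, searched on both strands. The STAT letters TTCNNNGAA were in 11.3% of the members' promoters and 8.3% of all. Neither of these overlaps the AP-1 letters in the 3 promoters printed. A match describes letters in the window and not a bound site. Of members that rose and had a promoter to search, 1 of 1 ligands (Il11) and 0 of 3 receptor chains held the AP-1 letters. Of those that fell, 1 of 1 ligands (Il16) and 2 of 10 receptor chains (Il15ra and Il17rb) held them. Of tested members that did not pass, 1 of 3 ligands (Il6) and 1 of 6 receptor chains (Il22ra1) held them. Of members that were not tested, 2 of 15 ligands and 3 of 6 receptor chains held them, so matches were not limited to members that changed. The ligands Il10, Il23a and Il34, which rose, and Il7 and Il15, which fell, had no promoter to search.

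Il23a (chromosome 10, 128296139 to 128298752), the p19 subunit of IL-23, was at 12.8 and 11.3 CPM in KO 1 and KO 2, against 1.37 and 0.894 CPM in WT 1 and WT 2. It rose 10.6-fold (log2 difference 3.40 ± 0.45 SE, edgeR adjusted p = 0.000591). The p40 subunit Il12b, which IL-23 needs as its partner, was at 1.20 and 3.70 CPM in the KO-labelled libraries, against 1.09 and 4.25 CPM in WT, and the groups overlap (edgeR adjusted p = 0.907). Il12a, the p35 subunit of IL-12, was not tested, with 1 and 3 counts in KO 1 and KO 2, against 1 and 15 counts in WT 1 and WT 2.

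Il10 (chromosome 1, 131019845 to 131024974), an anti-inflammatory cytokine made by macrophages and lymphocytes, had 49 and 37 counts in KO 1 and KO 2, against 1 and 2 counts in WT 1 and WT 2. Its levels were 9.80 and 5.95 CPM in the KO-labelled libraries, against 0.273 and 0.447 CPM in WT. The pooled ratio was 20.8 (95% exact interval 6.88 to 103), and the fitted log2 value was 4.32 ± 0.66 SE (edgeR adjusted p = 0.00119). Il10 lies in a cluster with Il19, Il20 and Il24, whose products act on epithelial cells. Il24 was not tested, with 5 and 10 counts in KO 1 and KO 2, against 0 and 2 counts in WT, a pooled ratio of 5.44 (95% exact interval 1.27 to 49.0). Il19 had 1 count in KO 2 and 0 in the other libraries, and Il20 had 0 in all 4.

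Il34 (chromosome 8, 110741829 to 110805924), a ligand of the macrophage receptor CSF1R, was at 9.60 and 9.98 CPM in KO 1 and KO 2, against 2.19 and 2.68 CPM in WT 1 and WT 2. It rose 3.97-fold with close replicates (log2 difference 1.99 ± 0.40 SE, edgeR adjusted p = 0.00478). Csf1r itself was at 741 and 466 CPM in the KO-labelled libraries, against 69.4 and 61.2 CPM in WT. Macrophage and fibroblast marker sums were higher in the same libraries in which Il10, Il23a, Il34 and Il11 were higher, as were duct marker sums. Their part in these results was not tested.

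The ligands that fell were Il7, Il15 and Il16. Il16, whose product attracts CD4+ cells and which is abundant in lymphocytes, was at 5.40 and 4.35 CPM in KO 1 and KO 2, against 59.6 and 41.8 CPM in WT 1 and WT 2. It fell 10.4-fold (log2 difference -3.38 ± 0.29 SE, edgeR adjusted p = 6.35e-05). Il15, which maintains NK and memory CD8 T cells, was at 1.00 and 0.805 CPM in the KO-labelled libraries, against 4.92 and 6.70 CPM in WT, and fell 6.37-fold (edgeR adjusted p = 0.0048). It did not pass without KO 2 (-2.48, edgeR adjusted p = 0.0508). Il7, a stromal survival factor for lymphocytes, was at 1.80 and 2.41 CPM in KO 1 and KO 2, against 9.29 and 7.60 CPM in WT, and fell 3.93-fold (edgeR adjusted p = 0.00733). It did not pass without KO 1 (-1.79, edgeR adjusted p = 0.0595). None of the 3 overlaps between groups, but this holds for all 24 members that changed and does not set these 3 apart. The share of all changed genes without overlap was not computed, so the count says nothing particular about the members.

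**Figure D3:**
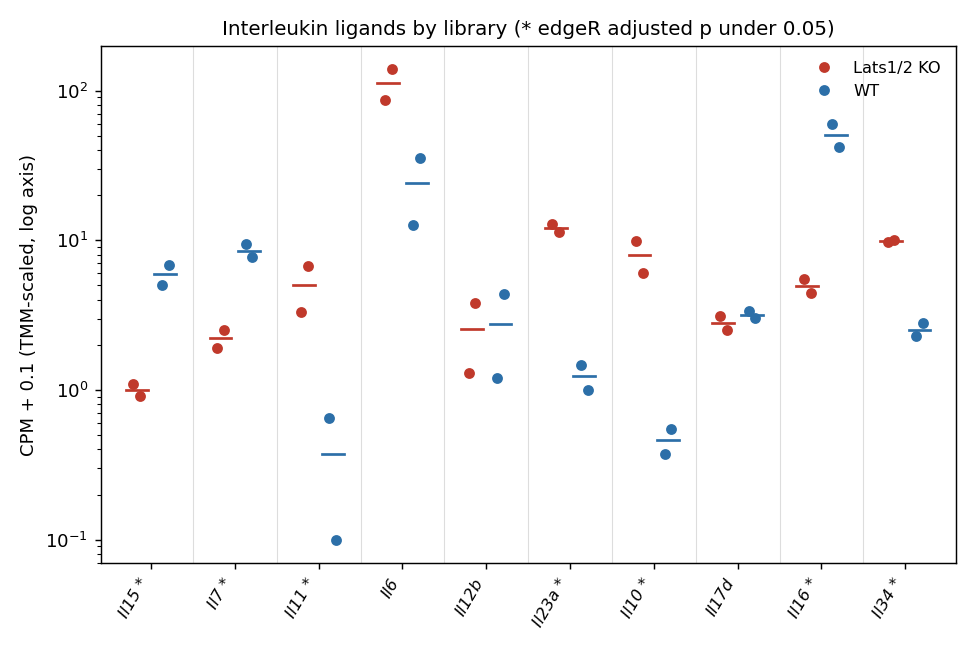
TMM-scaled CPM plus 0.1 of the 10 tested ligands on a log axis, KO-labelled libraries left (red) and WT right (blue), with 1 point per library and a line at the group mean. Il23a, Il10, Il34 and Il11 are higher and Il16, Il15 and Il7 lower in both KO-labelled libraries; Il6 ranges from 87.0 to 138 CPM against 12.6 to 35.5 CPM.

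Il17d, a widely expressed IL-17 family ligand, was the 1 tested member of its family, averaging 2.71 ± 0.42 CPM in the KO-labelled libraries and 3.09 ± 0.26 CPM in WT (SD, n = 2 each, edgeR adjusted p = 0.783). Among ligands that were not tested, Il4 had 9 and 11 counts in KO 1 and KO 2, against 2 and 9 counts in WT 1 and WT 2. Il22, an epithelial repair cytokine, had 2 and 2 counts in the KO-labelled libraries, against 6 and 10 counts in WT, and Il21 had 0 and 0 counts, against 1 and 6 counts in WT. Differences among such low counts are not detectable at this depth unless large, since 3 counts correspond to 0.600 and 0.483 CPM in KO 1 and KO 2, and to 0.82 and 0.67 CPM in WT 1 and WT 2. Il17a had 0 and 0 counts in the KO-labelled libraries, against 0 and 3 counts in WT, and Il17c 0 and 4 counts, against 0 and 1 counts in WT. Il5, Il13 and Il17f had at most 2 counts in any library. Il2, Il3, Il9, Il17b, Il25 and Il31 had 0 counts in all 4 libraries, as did Il20. The enzyme gene Il4i1 had 0 and 2 counts in KO 1 and KO 2, against 2 and 0 counts in WT.

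All 8 receptor chains of the common gamma chain family were tested, and 7 fell. Il2rg (chromosome X, 101264378 to 101268255), the common gamma chain itself, was at 10.4 and 5.15 CPM in KO 1 and KO 2, against 66.7 and 59.9 CPM in WT 1 and WT 2. It fell 8.21-fold (log2 difference -3.04 ± 0.32 SE, edgeR adjusted p = 0.000199). Il2rb, the signalling chain shared by IL-2 and IL-15, was at 10.6 and 9.01 CPM in the KO-labelled libraries, against 85.5 and 93.9 CPM in WT, and fell 9.15-fold (edgeR adjusted p = 2.21e-05). Both chains sat far below WT in each KO-labelled library, with little spread in WT.

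Il2ra, the alpha chain of the high-affinity IL-2 receptor on regulatory and activated T cells, was at 8.80 and 5.63 CPM in KO 1 and KO 2, against 37.7 and 32.2 CPM in WT (4.86-fold lower, edgeR adjusted p = 0.000475). Its neighbour Il15ra, which presents IL-15 to other cells, was at 5.20 and 3.86 CPM in the KO-labelled libraries, against 12.8 and 14.3 CPM in WT (edgeR adjusted p = 0.00673), and did not pass without KO 2 (log2 difference -1.35, edgeR adjusted p = 0.0603). The pair, 12.1 kb apart on chromosome 2, fell together. Il9r had 1 and 2 counts in KO 1 and KO 2, against 24 and 31 counts in WT, a pooled ratio of WT over KO-labelled counts of 25.3 (95% exact interval 8.21 to 126, edgeR adjusted p = 0.000725).

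Il7r, the IL-7 receptor alpha chain of lymphocytes, was at 36.6 and 27.8 CPM in KO 1 and KO 2, against 93.4 and 77.1 CPM in WT 1 and WT 2. It fell 2.65-fold (log2 difference -1.40 ± 0.21 SE, edgeR adjusted p = 0.00107). Il21r, found on B, T and NK cells, was at 35.4 and 20.3 CPM in the KO-labelled libraries, against 97.5 and 121 CPM in WT, and fell 3.94-fold (edgeR adjusted p = 0.00105). The median T and NK marker differed by -5.15 on the log2 scale, and the median B and plasma cell marker by -4.13. Il7r and Il21r fell by less than both, as did Il15ra (-1.59), Il2ra (-2.28), Il2rb (-3.19) and Il2rg (-3.04). Il27ra (-4.65) and Il9r (-4.53) fell by less than the T and NK median only. These gaps were not tested. T and NK cell and B cell marker sums were lower in the same libraries, and their part in the fall of these chains was not tested.

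Il4ra (chromosome 7, 125552120 to 125579474), the alpha chain of IL-4 and IL-13 receptors, was the member of this family that rose. Its levels were 305 and 283 CPM in KO 1 and KO 2, against 126 and 148 CPM in WT 1 and WT 2. The 2.14-fold rise was well beyond the spread within groups (log2 difference 1.10 ± 0.16 SE, edgeR adjusted p = 0.00106). Il13ra1 (chromosome X, 36112110 to 36171259), which joins IL-4RA in the type II receptor of non-lymphoid cells, was at 70.2 and 79.3 CPM in the KO-labelled libraries, against 29.2 and 23.9 CPM in WT. It rose 2.82-fold (edgeR adjusted p = 0.000608). Thus both type II chains rose, while Il2rg, the partner of IL-4RA in the type I receptor of lymphocytes, fell. Per kilobase of exon, Il4ra was the most abundant receptor chain in the KO-labelled libraries, at 49.0 CPM per kb, against 22.9 CPM per kb in WT. Il4ra and Il21r are neighbours on chromosome 7, 24.0 kb apart on the same strand, and moved in opposite directions. Il13ra2, the decoy receptor for IL-13, was not tested, with 0 and 0 counts in KO 1 and KO 2, against 8 and 5 counts in WT, at least 5.97-fold lower against a floor of 3 counts over the group. The ligands of these receptors had few counts, with 1 count of Il13 in each group and at most 11 counts of Il4 in a library.

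In the gp130 family, 4 of 6 chains were tested, 3 fell and 0 rose. Il6st (chromosome 13, 112464070 to 112510086), which encodes gp130, was at 295 and 235 CPM in KO 1 and KO 2, against 548 and 485 CPM in WT 1 and WT 2. It fell 1.95-fold (log2 difference -0.96 ± 0.18 SE, edgeR adjusted p = 0.00311) and, per kilobase of exon, was the most abundant receptor chain in WT, at 23.9 CPM per kb in the KO-labelled libraries and 46.5 CPM per kb in WT. Il6ra, the ligand-binding chain for IL-6, was at 47.2 and 39.6 CPM in the KO-labelled libraries, against 66.9 and 49.2 CPM in WT (log2 difference -0.42 ± 0.22 SE, edgeR adjusted p = 0.153), and passed with upper quartile scaling (-0.61, edgeR adjusted p = 0.0495).

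Il11ra1, the receptor of IL-11, was at 26.6 and 29.6 CPM in KO 1 and KO 2, against 66.9 and 54.3 CPM in WT, and fell 2.15-fold (edgeR adjusted p = 0.00317). Il11 and its receptor therefore moved in opposite directions. Il11ra2, a near-identical copy of Il11ra1, had 0 counts in all libraries. Its gene model is listed on scaffold JH584294.1 from 4164 to 42661893, unlike its coordinates in GENCODE M21, so the 0 counts may reflect that model. How the authors assigned reads shared by the 2 copies is not given, so the level of Il11ra1 is uncertain. Il27ra, the IL-27 receptor chain of T, B and NK cells, had the largest fall among tested members, at 2.60 and 1.29 CPM in the KO-labelled libraries, against 45.4 and 50.9 CPM in WT (25.1-fold lower, log2 difference -4.65 ± 0.34 SE, edgeR adjusted p = 3.3e-05). The lower T and NK cell and B cell marker sums were not tested for their part in this fall. Il31ra, next to Il6st, had 0 and 0 counts in KO 1 and KO 2, against 2 and 3 counts in WT.

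Among IL-12 and IL-23 receptor chains, both tested genes fell. Il12rb1, shared by the IL-12 and IL-23 receptors, was at 0.600 and 0.322 CPM in KO 1 and KO 2, against 4.37 and 3.58 CPM in WT (8.39-fold lower, edgeR adjusted p = 0.00616), and did not pass without KO 2 (log2 difference -2.64, edgeR adjusted p = 0.0873). Il12rb2, the IL-12 chain of T and NK cells, was at 0.400 and 0.483 CPM in the KO-labelled libraries, against 3.01 and 2.23 CPM in WT (edgeR adjusted p = 0.0202). Its call was lost without any 1 of the 4 libraries, without the filter (edgeR adjusted p = 0.0536) and with DESeq2 (adjusted p = 0.17), and adjusted p over the alternatives ranged up to 0.182. Il23r was not tested, with 0 and 3 counts in KO 1 and KO 2, against 6 and 8 counts in WT, a pooled ratio of WT over KO-labelled counts of 6.43 (95% exact interval 1.80 to 34.9). Il23a thus rose in libraries where Il12rb1 fell.

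Of 6 IL-10 family receptor chains 4 were tested, 1 rose and 0 fell. Il10ra, the ligand-binding chain of haematopoietic cells, was at 48.4 and 39.9 CPM in KO 1 and KO 2, against 39.3 and 54.7 CPM in WT 1 and WT 2, with overlapping groups (edgeR adjusted p = 0.765). Il10rb, which is broadly expressed and shared by IL-10, IL-22 and type III interferon receptors, was at 46.6 and 64.2 CPM in the KO-labelled libraries, against 34.2 and 34.6 CPM in WT. It rose 1.61-fold (log2 difference 0.69 ± 0.22 SE, edgeR adjusted p = 0.0327). The call was lost without KO 2 (0.47, edgeR adjusted p = 0.161), without WT 1 or WT 2 (edgeR adjusted p = 0.0918 and 0.0973), with upper quartile scaling (0.49, edgeR adjusted p = 0.0969) and with DESeq2 (0.73, adjusted p = 0.0599). Il22ra1, the epithelial chain of the IL-22 receptor, was at 1.20 and 2.25 CPM in KO 1 and KO 2, against 3.28 and 2.01 CPM in WT, and Il20rb at 1.80 and 3.70 CPM, against 2.19 and 2.46 CPM in WT. Neither passed (edgeR adjusted p = 0.48 and 0.745). Il20ra had 1 and 0 counts in the KO-labelled libraries, against 0 and 1 counts in WT, and Il22ra2, the soluble IL-22 binding protein, 1 and 0 counts, against 0 and 3 counts in WT.

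All 5 IL-17 receptor chains were tested, 1 rose and 1 fell. Il17rd (chromosome 14, 27038941 to 27107286), also known as Sef and a feedback inhibitor of FGF and MAPK signalling, was at 18.2 and 30.3 CPM in KO 1 and KO 2, against 4.92 and 7.82 CPM in WT 1 and WT 2. It rose 3.77-fold (log2 difference 1.91 ± 0.37 SE, edgeR adjusted p = 0.00375), and its call held under all 9 alternatives, with adjusted p of at most 0.0375. Il17ra, the chain common to IL-17 receptors, was at 78.2 and 76.1 CPM in the KO-labelled libraries, against 63.7 and 71.1 CPM in WT (log2 difference 0.20 ± 0.17 SE, edgeR adjusted p = 0.381).

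Il17rc, the partner of IL-17RA for IL-17A and IL-17F, was at 14.4 and 9.98 CPM in KO 1 and KO 2, against 7.65 and 9.61 CPM in WT (edgeR adjusted p = 0.281). Il17re, the epithelial IL-17C receptor, lies 0.7 kb from Il17rc and was at 1.40 and 4.67 CPM in the KO-labelled libraries, against 7.65 and 6.03 CPM in WT (log2 difference -1.13 ± 0.56 SE, edgeR adjusted p = 0.14). It passed without KO 2 (-2.23, edgeR adjusted p = 0.0499). Il17rb, the IL-25 receptor, was at 0.200 and 0.644 CPM in KO 1 and KO 2, against 3.01 and 3.35 CPM in WT, and fell 6.88-fold (edgeR adjusted p = 0.0136). It did not pass with DESeq2 (adjusted p = 0.0987) or without any 1 of the 4 libraries (edgeR adjusted p up to 0.15), and its log2 difference of -2.78 became -3.78 without KO 2.

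Of the common beta chain family, Il3ra was at 16.0 and 13.4 CPM in KO 1 and KO 2, against 16.9 and 10.3 CPM in WT, with overlapping groups (edgeR adjusted p = 0.803). Il5ra, the IL-5 receptor of eosinophils and B cells, was left out by the filter, with 0 and 1 counts in the KO-labelled libraries, against 7 and 28 counts in WT, a pooled ratio of WT over KO-labelled counts of 48.3 (95% exact interval 8.11 to 1960). Without the filter, Il5ra (log2 difference -5.11, edgeR adjusted p = 3.48e-05) and Il13ra2 (edgeR adjusted p = 0.00871) fell, of which DESeq2 called Il5ra (adjusted p = 0.0139) and not Il13ra2 (adjusted p = 0.0599). In the fit without the filter, 0 of the other 17 untested members with a count passed. Among eosinophil markers, Prg2 had 0 and 0 counts in the KO-labelled libraries, against 7 and 15 counts in WT, Siglecf had 17 and 13 counts, against 3 and 5 counts in WT (edgeR adjusted p = 0.1), and Epx was at 0 in all 4 libraries.

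**Figure D4:**
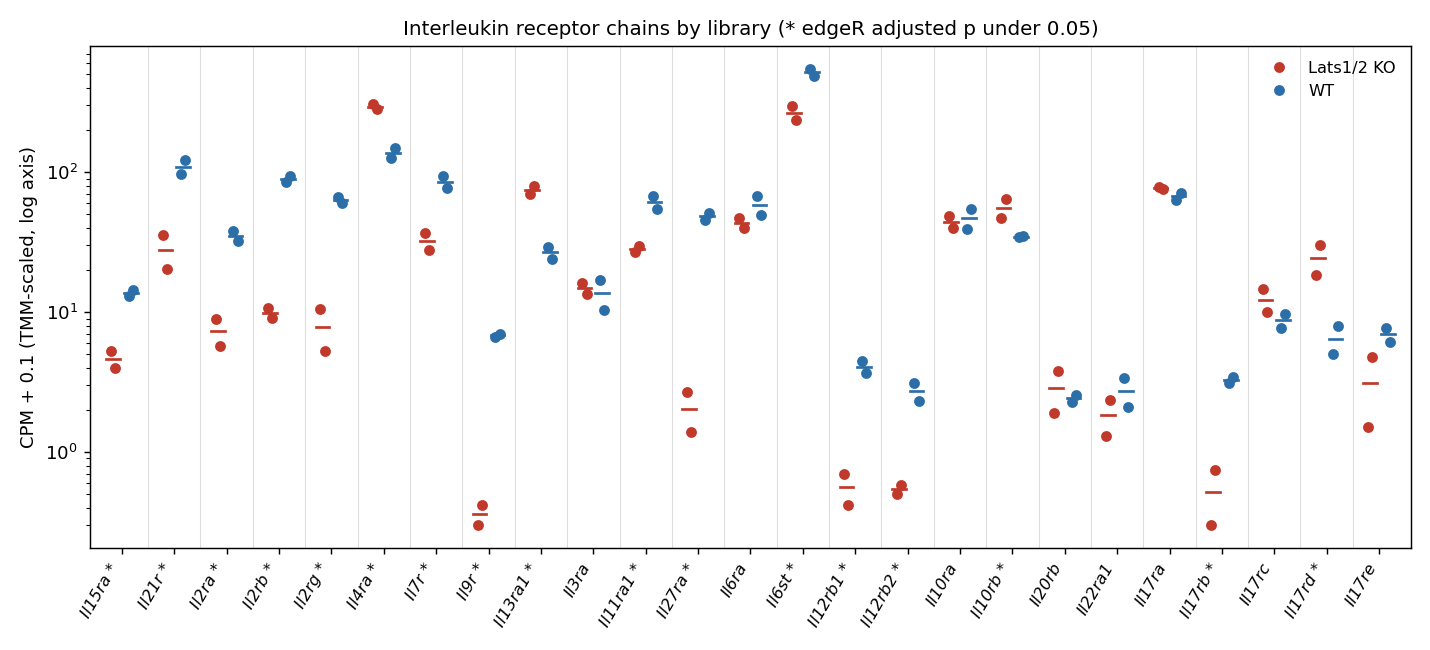
TMM-scaled CPM plus 0.1 of the 25 tested receptor chains on a log axis, KO-labelled libraries left (red) and WT right (blue), with 1 point per library and a line at the group mean, ordered by family. Il4ra, Il13ra1, Il10rb and Il17rd are higher in both KO-labelled libraries, and 13 chains marked with a star are lower.

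Of 16 receptor chains and cytokines that pair with members but carry other names, 12 were tested, 8 rose and 2 fell (median log2 difference 1.34). For this list and those that follow, the shares over all 13990 tested genes are 22.0% higher and 20.2% lower. Csf1r rose 9.24-fold (edgeR adjusted p = 5.13e-05) and is itself a macrophage marker. The falls were in the LIF receptor Lifr, at 69.2 and 76.4 CPM in the KO-labelled libraries, against 272 and 152 CPM in WT (edgeR adjusted p = 0.00443), and in Cntfr, at 4.80 and 3.70 CPM, against 21.3 and 11.6 CPM in WT (edgeR adjusted p = 0.00532). With either KO-labelled library left out, Lifr did not pass (edgeR adjusted p = 0.151 without KO 1 and 0.139 without KO 2).

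The gp130 cytokines and receptor of this list that rose are given next, chosen after their values were seen. Osm, a macrophage and neutrophil cytokine, was at 47.0 and 70.3 CPM in KO 1 and KO 2, against 4.92 and 7.82 CPM in WT (9.09-fold higher, edgeR adjusted p = 0.000132). Its receptor Osmr was at 150 and 143 CPM in the KO-labelled libraries, against 58.2 and 65.5 CPM in WT (edgeR adjusted p = 0.000566), and Lif at 112 and 145 CPM, against 27.0 and 40.0 CPM in WT (edgeR adjusted p = 0.000376). So Lif, Osm and Osmr rose while Lifr and gp130 fell. Clcf1, another gp130 cytokine, was at 23.8 and 73.9 CPM in KO 1 and KO 2, against 26.8 and 39.6 CPM in WT, with overlapping groups (edgeR adjusted p = 0.534), and Ctf1, Cntf and Ebi3 had too few counts to be tested.

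Of 11 JAK and STAT genes 1 rose and 8 fell (median log2 difference -0.84). Stat3, which gp130 and IL-10 receptors activate, was at 286 and 362 CPM in KO 1 and KO 2, against 186 and 220 CPM in WT (1.60-fold higher, edgeR adjusted p = 0.0172). It did not pass without KO 2 (0.53, edgeR adjusted p = 0.0564) or WT 1 (0.57, edgeR adjusted p = 0.123), or with upper quartile scaling (0.48, edgeR adjusted p = 0.0622). Stat4, the IL-12 effector of T and NK cells, was at 5.20 and 3.54 CPM in the KO-labelled libraries, against 27.3 and 32.2 CPM in WT (6.84-fold lower, edgeR adjusted p = 0.000238).

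Of 12 genes of SOCS proteins and receptor phosphatases 5 rose and 1 fell (median 0.57). Without WT 1, without WT 2 or with upper quartile scaling, 3 rose and 1 fell. Socs3, the feedback inhibitor of gp130 signalling, was at 541 and 494 CPM in KO 1 and KO 2, against 184 and 263 CPM in WT (2.31-fold higher, edgeR adjusted p = 0.00179). Socs6 was at 39.2 and 51.5 CPM in the KO-labelled libraries, against 13.4 and 14.3 CPM in WT (3.27-fold higher, edgeR adjusted p = 0.000717). The gene that fell was Ptpn6, the phosphatase SHP-1 of blood cells, at 74.0 and 56.5 CPM, against 246 and 231 CPM in WT (edgeR adjusted p = 0.000131).

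Of 10 IL-17 receptor signalling genes 3 rose and 2 fell (median -0.05). Over all tested genes 22.0% rose and 20.2% fell, so these counts do not set the list apart. Zc3h12a, the RNase Regnase-1, rose 3.13-fold (edgeR adjusted p = 0.000674) and the adaptor Traf6 1.80-fold (edgeR adjusted p = 0.00817), while Traf5 fell 4.13-fold (edgeR adjusted p = 0.000441) and Traf2 2.02-fold (edgeR adjusted p = 0.00861). Of 13 genes that respond to IL-6, IL-11 or IL-22, which include the member Il4ra, 7 rose and 0 fell (median 1.10), and without KO 2 6 rose and 1 fell. Timp1, a metalloprotease inhibitor, was at 97.2 and 93.7 CPM in KO 1 and KO 2, against 3.01 and 3.80 CPM in WT (edgeR adjusted p = 1.18e-05). Saa3, an acute-phase protein, had 158 and 91 counts in the KO-labelled libraries, against 0 and 0 counts in WT, at least 60.2-fold higher against 3 counts over the group. Socs3, given above, is also in this list, so its rise counts in both lists. Reg3b, Reg3g and Lcn2 did not pass. KO 1 and KO 2 were far apart for Reg3b (27.8 and 543 CPM), Reg3g (1.00 and 17.7 CPM) and Lcn2 (80.2 and 261 CPM). The part of the higher macrophage, fibroblast and duct marker sums in the changes of this list was not tested.

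Of 12 genes that respond to IL-4 or IL-13 in macrophages and stroma, 10 were tested, 4 rose and 1 fell (median 1.11). The chitinase-like Chil3 was at 50.6 and 39.4 CPM in KO 1 and KO 2, against 2.19 and 1.12 CPM in WT (edgeR adjusted p = 3.94e-05), and the mannose receptor Mrc1, also a macrophage marker, at 298 and 214 CPM, against 51.1 and 23.9 CPM in WT (edgeR adjusted p = 0.00497). Mrc1 did not pass with either KO-labelled library left out (edgeR adjusted p = 0.113 without KO 1 and 0.104 without KO 2), and its log2 difference of 2.78 became 3.43 without WT 1. The chemokine Ccl22 averaged 3.61 ± 0.55 CPM in the KO-labelled libraries and 62.6 ± 22.4 CPM in WT (SD, n = 2 each, edgeR adjusted p = 5.29e-05). Without KO 1, 2 genes of this list rose and 1 fell. Cish, which did not pass, is also in the list of SOCS proteins and receptor phosphatases. The part of the higher macrophage sums in these changes was not tested.

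**Figure D5:**
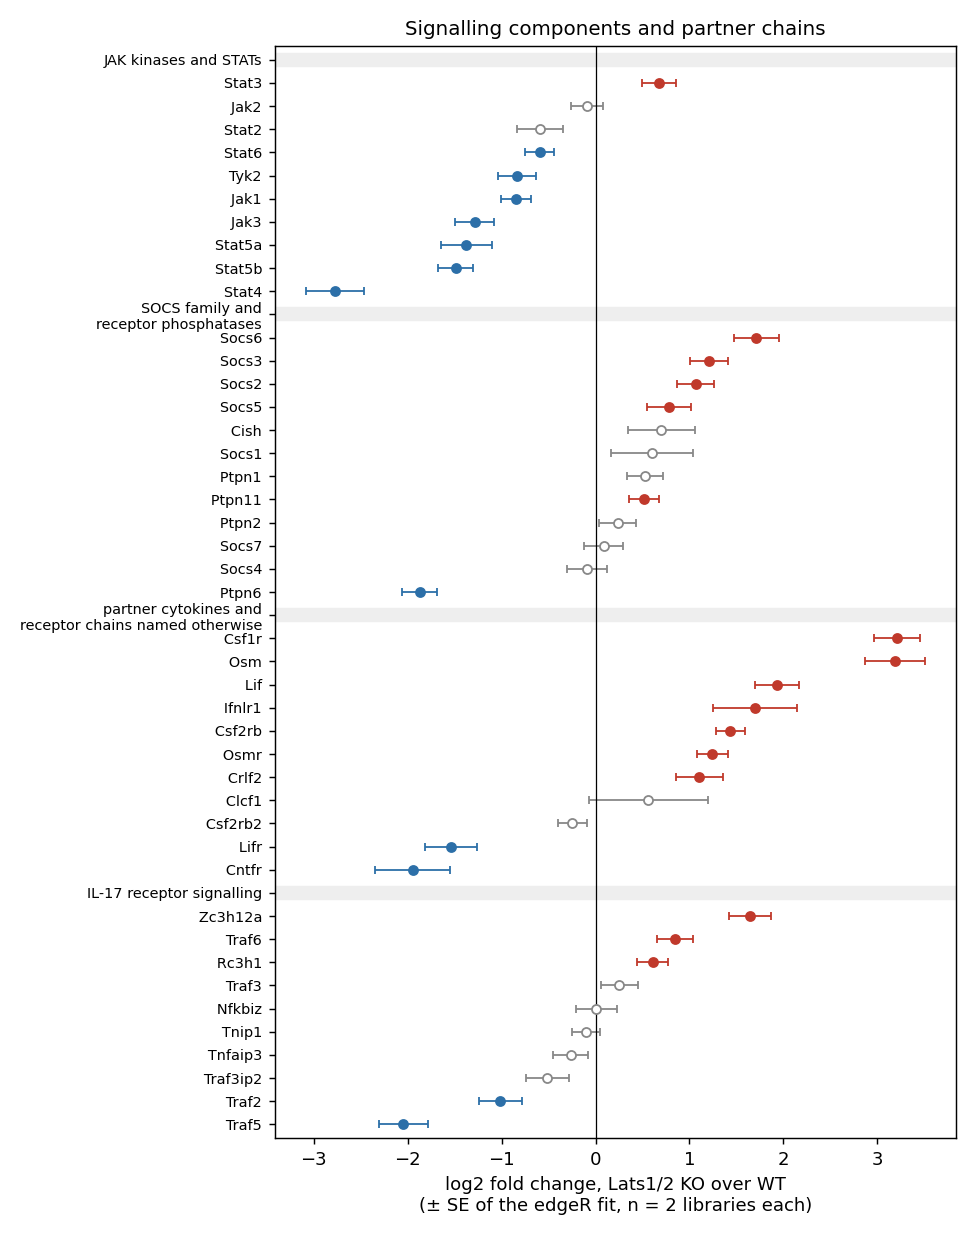
Log2 fold change of KO-labelled over WT libraries (n = 2 each) with the SE of the edgeR fit, for tested genes of 4 lists of partner chains and signalling components, with 2 genes not shown. Filled points passed an adjusted p of 0.05, red for higher and blue for lower; Stat3 at 0.67 is the 1 JAK or STAT gene that rose.

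Levels of genes can be set side by side only per length. Per kilobase of exon, the receptor order in the KO-labelled libraries was Il4ra at 49.0, Il6st at 23.9, Il13ra1 at 20.1, Il10rb at 14.6 and Il10ra at 12.6 CPM per kb. In WT the order was Il6st at 46.5, Il21r at 32.9, Il2rg at 26.5, Il4ra at 22.9 and Il2rb at 20.9 CPM per kb. Of the 24 members that changed, 10 share exonic bases with another gene model in GENCODE M21, among them Il10rb with Gm21970 and Il2rg with Gm20489 on the same strand. Since the authors' use of strand in counting is not given, reads there cannot be told apart.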

How the data were processed

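Libraries were made from 1 µg of total RNA with a strand-preserving SMARTer kit, per the labels' protocols. Each library has 1 deposited file of unnormalised counts, listed by gene model, and per the submitters' processing notes the build was mm10 and the tools TopHat and edgeR. No source used here gives the counting program, annotation or strand setting. Starts are given from 1.

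Libraries were grouped by title. From the deposited counts, low genes were removed (filterByExpr) and TMM factors computed in R 4.3.3. The quasi-likelihood test of edgeR 4.0.16 (robust glmQLFit, then glmQLFTest) compared genotypes over all 4 libraries, leaving 2 residual degrees of freedom. P-values were adjusted by Benjamini-Hochberg over 13990 genes, with a threshold of 0.05. SE is the log2 difference divided by the root of F. CPM per kb uses GENCODE M21 exon unions. Pooled ratios, for groups with 1 to 3 counts, are of TMM-scaled counts with exact binomial intervals. Floors are 3 counts. The procedure was tested on simulated counts. Alternatives were other scalings, no filter, DESeq2 1.42.0, a replicate block and leaving out each library. Every member past the threshold is named, and of each other list the 2 largest rises and falls. Of these, 2 genes are counted in their lists and not reported here. Members and lists were chosen with earlier results of these data known.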

Additional observations from a re-analysis of the deposited data

How the results depend on the processing

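Of the 24 members that changed, 16 kept their call under all 9 alternatives, 8 lost it under at least 1 (Il7, Il15, Il15ra, Il11, Il12rb1, Il12rb2, Il10rb and Il17rb, with values given above) and 0 changed direction. Of the 11 tested members that did not pass, Il6, Il6ra and Il17re passed under at least 1. The number of changed ligands was 7, and 5 to 9 with 1 library left out; of changed receptor chains 17, and 14 to 15; and of all genes 5910, and 4206 to 4608. In these runs the lone library of a group is assumed to vary like the others, and fewer samples enter the fit. Upper quartile scaling put the all-gene median at -0.20, with 3 receptor chains higher and 14 lower. DESeq2 gave 4760 changed genes and no filter 6730. Whether same-numbered libraries form pairs is not stated in the titles. Deviations of same-numbered libraries from the group means correlated at 0.05 across genes, which cannot settle it. With the replicate block, 8 ligands, 17 receptor chains and 6656 genes changed. Depth limits the 27 untested members, where 3 counts were 0.483 to 0.82 CPM.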
